A study of Bos taurus with 3 samples.

Results

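IL1RL1 encodes ST2, the receptor for the cytokine interleukin 33, and is described here over single mesenchymal stromal cells (MSCs) cultured from 3 bovine tissues. The gene was found by its symbol, which 1 of the 21861 listed genes carried, with the identifier ENSBTAG00000018571. It was selected on its measured level: earlier results of these libraries showed it far higher in the adipose and peripheral blood cultures than in the bone marrow culture. Its levels by tissue are therefore a description, without a test.

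Interleukin 33 is kept in the nucleus of stromal, endothelial and epithelial cells and is released when they are damaged. It binds ST2, which then recruits the co-receptor IL1RAP and signals through the adaptor MYD88, the IRAK kinases and the ubiquitin ligase TRAF6 to NF-kB and MAP kinases. ST2 is best known from mast cells, group 2 innate lymphoid cells and regulatory T cells, and in mouse it was also found as a serum-induced gene of fibroblasts. In human and mouse the gene also makes a shorter, secreted form that captures the ligand. Counts of 3′ ends per gene, as used here, do not tell the secreted form from the membrane receptor.

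The cultures came from adipose tissue, peripheral blood and bone marrow of 1 healthy Holstein-Frisian cow in its opening lactation. The labels give all of them as wild type and untreated, and the culture medium for each was DMEM of low glucose content plus 30% FBS, kept until colonies could be seen. There was 1 library per tissue and a single animal, so tissue cannot be told apart from culture or preparation and no p-value is given. Intervals below are 95% exact intervals that cover counting error only. The library labelled adipose kept 6088 cells with a median of 14391 unique molecular identifiers (UMIs, 1 for each captured RNA molecule) per cell, the peripheral blood library 3192 cells with 24884, and the bone marrow library 9281 cells with 9096.

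Of 16 stromal marker genes, 13 reached 50 CPM (UMIs per 1000000 UMIs of the library's cells) in the adipose library, 13 in blood and 12 in bone marrow, and all 16 were detected in each. Small clusters of other cells were present: 39 cells with endothelial genes in adipose, 157 cells with macrophage genes in blood, and, in bone marrow, 514 macrophage-like cells led by FABP4, LYZ and S100A9 and 465 cells of mixed macrophage and stromal content. The 16 macrophage markers summed to 12.1 CPM in adipose, 165 CPM in blood and 674 CPM in bone marrow. The other 6049 adipose, 3035 blood and 8302 marrow cells are called the remaining cells, in which those markers summed to 10.9, 11.7 and 19.9 CPM. Cells of different libraries shared 4 barcodes between adipose and blood, 8 between adipose and bone marrow, and 10 between blood and bone marrow.

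IL1RL1 was abundant in the adipose culture, lower in the blood culture, and scarce in the bone marrow culture. The adipose cells held 74617 IL1RL1 UMIs, or 787 CPM (781 to 792). The blood cells held 24474 UMIs, or 274 CPM (271 to 278). The bone marrow cells held 523 UMIs, or 5.29 CPM (4.85 to 5.77). Among the genes at 1 CPM or more in each library, IL1RL1 ranked 200 of 10606 in adipose, 534 of 10763 in blood and 8332 of 10834 in bone marrow. A UMI library of 3′ ends gives 1 count per molecule whatever the transcript's length, so these ranks compare genes without a length correction.

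The adipose to bone marrow ratio was 149 (136 to 162) and the blood to bone marrow ratio 51.8 (47.5 to 56.6). Both ratios use the same bone marrow library. The adipose to blood ratio was 2.87 (2.83 to 2.91). Over the 3174 genes that reached 50 CPM in adipose or bone marrow, 2 genes, DMRT2 and SFRP2, had a larger ratio in favour of adipose than IL1RL1. DMRT2 is a transcription factor of the doublesex family, and SFRP2 is a secreted Wnt modulator. Of 3131 genes measured in blood or bone marrow, 6 had a larger ratio in favour of blood: SST, MFAP5, CCN5, SFRP2, ANKRD1 and CD248. Of the genes measured in each pair, 2.55% were at least 2-fold higher in adipose than in bone marrow and 4.35% at least 2-fold lower; 3.9% were higher in blood than in bone marrow and 3.86% lower; and 1.2% were higher in adipose than in blood and 3.83% lower. IL1RL1 was chosen for these contrasts, so nothing is read from its place among those shares.

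The level was higher in cells with more S-phase transcripts. In the remaining cells that ranked highest in S-phase transcripts, 1510 in adipose, 766 in blood and 2239 in bone marrow, IL1RL1 was at 943 CPM in adipose, 416 CPM in blood and 7.87 CPM in bone marrow, against 678, 236 and 2.94 CPM in the remaining cells low in both S-phase and G2/M transcripts. In remaining cells that ranked highest in G2/M transcripts it was at 822, 242 and 6.42 CPM, of which the blood value is close to that of the low-cycling cells. Over all cells low in cycling transcripts, with the small clusters kept, the ratio was 261 for adipose over bone marrow and 87.1 for blood over bone marrow. Over the remaining cells of any cycle state the ratios were 140 and 49.9. The part of the cell cycle in the difference between tissues was not tested.

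**Figure D1:**
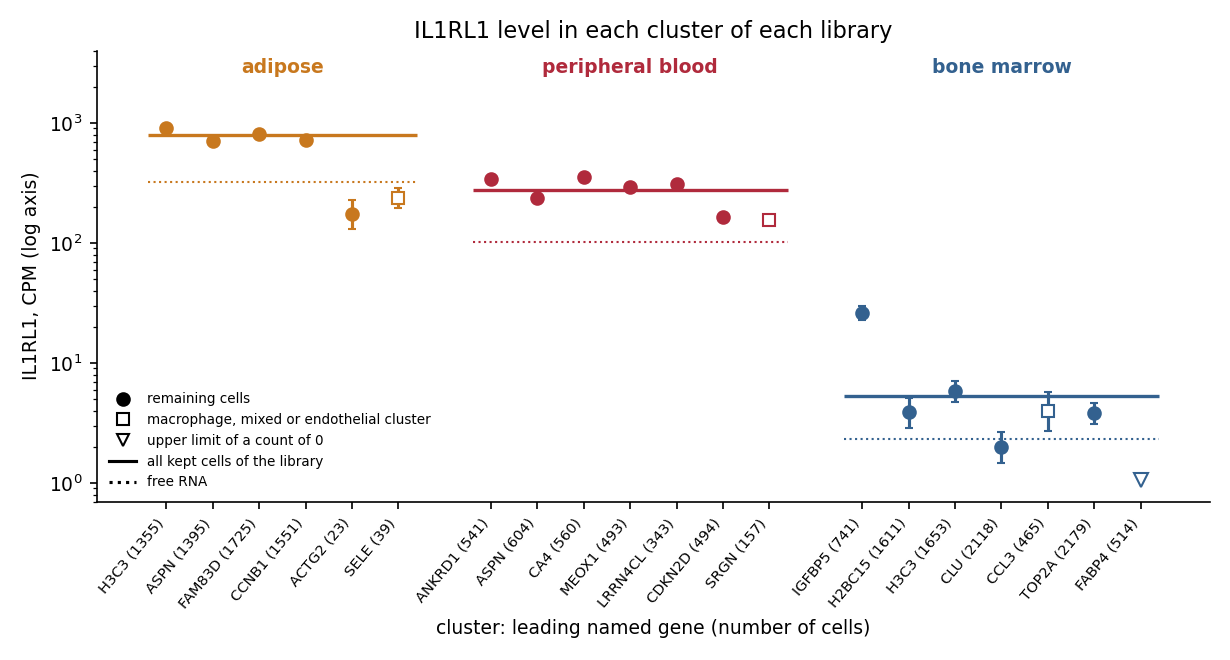
IL1RL1 level in CPM (log axis) in every cluster of the adipose, peripheral blood and bone marrow libraries, with 95% exact Poisson intervals; solid lines give all kept cells of a library and dotted lines give free RNA in barcodes of 10 to 100 UMIs. The adipose library lies at 787 CPM, blood at 274 CPM and bone marrow at 5.29 CPM, and 1 bone marrow cluster stands at 26.1 CPM.

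The share of cells in which the transcript was seen was highest in adipose, lower in blood and very low in bone marrow. Every cell was thinned to 3000 UMIs to make the shares comparable, and no cell was too shallow for this. At that depth 76.3% of adipose cells (75.2 to 77.3), 42.2% of blood cells (40.5 to 44.0) and 1.47% of bone marrow cells (1.23 to 1.73) held at least 1 IL1RL1 UMI. The shares depend on depth. Among cells of at least 6000 UMIs thinned to that depth, they were 88.7% in adipose, 59.7% in blood and 2.99% in bone marrow. Without thinning the shares were 95.2% in adipose, 82.9% in blood and 4.58% in bone marrow. The unthinned cell had a median of 9 IL1RL1 UMIs in adipose, 4 in blood and 0 in bone marrow, with a highest value of 119, 141 and 5.

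Free RNA carried the transcript too. Barcodes of 10 to 100 UMIs, too small to be cells, held 325 CPM of IL1RL1 in adipose, 101 CPM in blood and 2.31 CPM in bone marrow, the last from 3 UMIs. The kept cells exceeded this 2.42-fold in adipose and 2.71-fold in blood. In bone marrow the interval of the free RNA level, 0.476 to 6.75 CPM, holds the 5.29 CPM of the cells, so a difference was not detectable there. The small clusters of other cells are set beside this, but some of their cells held stromal transcripts, so their shares are not a plain background. In adipose, 6 of the 39 endothelial cluster cells (15.4%, 5.86 to 30.5, median depth 9294 UMIs) had an IL1RL1 UMI at 3000 UMIs. The 9 of these cells with a UMI before thinning had a median depth of 19740 UMIs, against 8546 UMIs in the others; endothelial cells can express ST2 in human and mouse. In blood, 31 of the 157 macrophage-like cells had an IL1RL1 UMI at 3000 UMIs (19.7%, 13.8 to 26.8, median depth 21533 UMIs). The 74 of them with a UMI before thinning had a median of 3.08% stromal marker UMIs, against 0.478% in the others. A finer clustering gave 77 macrophage-like cells, 2 of them with an IL1RL1 UMI (2.60%, 0.316 to 9.07, median depth 9876 UMIs), and 80 cells of mixed content, 29 of them with one (36.3%, 25.8 to 47.8, median depth 30884 UMIs). In bone marrow 0 of 514 macrophage-like cells had one, with a median depth of 5895 UMIs, and the exact interval of a count of 0 reaches 0.715%. Of the 465 marrow cells of mixed content, 4 did (0.860%, 0.235 to 2.19, median depth 14212 UMIs). The shares over all cells lay above the interval of the endothelial cluster in adipose, which was itself of mixed content, and of the macrophage-like clusters in blood and bone marrow. They lay within the intervals of the mixed macrophage clusters in blood and bone marrow.

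Within the adipose and blood cultures the level varied from cell to cell more than counting alone gives. Among remaining cells at 3000 UMIs, the variance of IL1RL1 was 2.69 times its mean in adipose, 2.02 times in blood and 1.04 times in bone marrow, where a value of 1 is counting noise. The 84 adipose genes within 1.25-fold of its level had a median of 1.12, and 3 of them, CXCL5, THBS1 and ARAF, were higher. Of 258 such blood genes, with a median of 1.05, 6 were higher: SFRP2, ACTA2, ENSBTAG00000037778, TOP2A, FABP5 and CSF1. Among all kept cells at 3000 UMIs, the 10% with the most IL1RL1 held 33.7% of its UMIs in adipose and 47.5% in blood. No baseline of counting noise was computed for these shares. Leiden clusters held 2.67% of the total variance of the log level in adipose, 5.20% in blood and 5.15% in bone marrow. With finer clusters they held 8.67%, 12.5% and 5.49%, and with IL1RL1 left out of the clustering 3.85%, 10.0% and 4.86%. This total includes counting noise, so the part of clusters in the variation beyond counting was not measured.

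**Figure D2:**
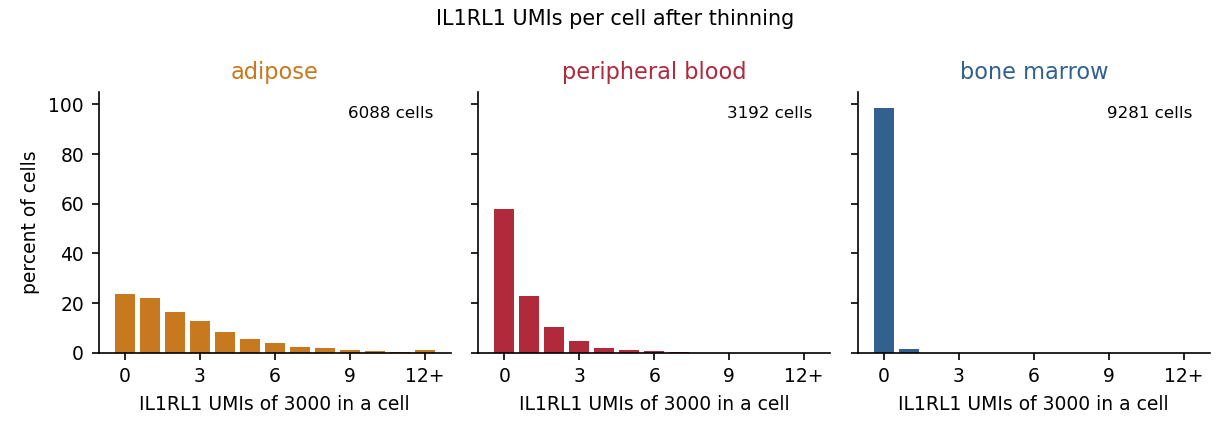
Percent of cells (vertical axis) by number of IL1RL1 UMIs among 3000 drawn from each cell (horizontal axis, the last bar holding 12 or more) in adipose, peripheral blood and bone marrow. Adipose cells spread from 0 to 12 or more UMIs, 57.8% of blood cells had none, and 98.5% of bone marrow cells had none.

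Every sizeable stromal cluster of the adipose and blood cultures carried IL1RL1. In adipose the 4 clusters of over 1000 cells ran from 708 CPM in the ASPN and ACTA2 cluster, which shows contractile genes, to 911 CPM in the histone-rich cluster, a 1.29-fold range. A cluster of 23 cells led by ACTG2, a smooth muscle actin, had 174 CPM (131 to 227). Finer clustering widened the adipose range to between 504 CPM in a cluster led by COL4A1 and NES and 1243 CPM in 123 cells led by SFRP4. In blood the clusters ran from 163 CPM in the mitotic cells led by CDKN2D and TOP2A to 356 CPM in the cells led by CA4, CXCL2 and IL6. Finer clusters of blood reached 465 CPM in 250 cells whose leading genes included CA4, INHBA and CCL2, and 134 CPM in 176 cells led by CCN3, CNN1 and TNC.

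In bone marrow 1 cluster had a higher level of the transcript than the others, though most of its UMIs lay outside that cluster. The 741 cells led by IGFBP5, TINAGL1, UNC13D, LIPG and INHBA made up 7.98% of the library but held 195 of its 523 IL1RL1 UMIs, or 37.3%. Their level was 26.1 CPM (22.6 to 30.1), against 3.71 CPM over the other remaining marrow cells, a ratio of 7.05 (5.85 to 8.47). The clusters were made from these same counts, so differences between them are a description. Unthinned, 18.9% of these cells had an IL1RL1 UMI, against 1.98% to 4.66% of cells in the other stromal clusters. At 3000 UMIs the share was 7.02% (5.29 to 9.10) in this cluster and 0.519% to 1.51% in the others. With IL1RL1 left out of the genes used for clustering, the highest marrow cluster had 25.9 CPM. That is still below the 134 CPM of the lowest blood cluster outside the macrophage-like cells. Of the 425 marrow cells with an IL1RL1 UMI, 354 had exactly 1 and 18 had 3 or more. Of the 18 marrow cells that shared a barcode with another library, 1 had an IL1RL1 UMI.

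The marrow cells with and without the transcript differed in some of the genes followed, while others, such as ESM1 (ratio 1.04) and TPM2 (0.984), were close. The 402 remaining marrow cells with an IL1RL1 UMI had a median depth of 10499 UMIs and the 7900 without one 9051; the part of depth was not tested. COL1A1, the main chain of type I collagen, was at 2425 CPM in cells with an IL1RL1 UMI and 4070 CPM in those without. SFRP2 had 20 UMIs in the cells with IL1RL1 and 31 in the far more numerous cells without it, a ratio of levels of 10.8 (5.85 to 19.6). Of the 402 cells, 140 lay in the IGFBP5 and TINAGL1 cluster, so this contrast overlaps with that of the cluster. The part of the cluster in it was not tested.

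**Figure D3:**
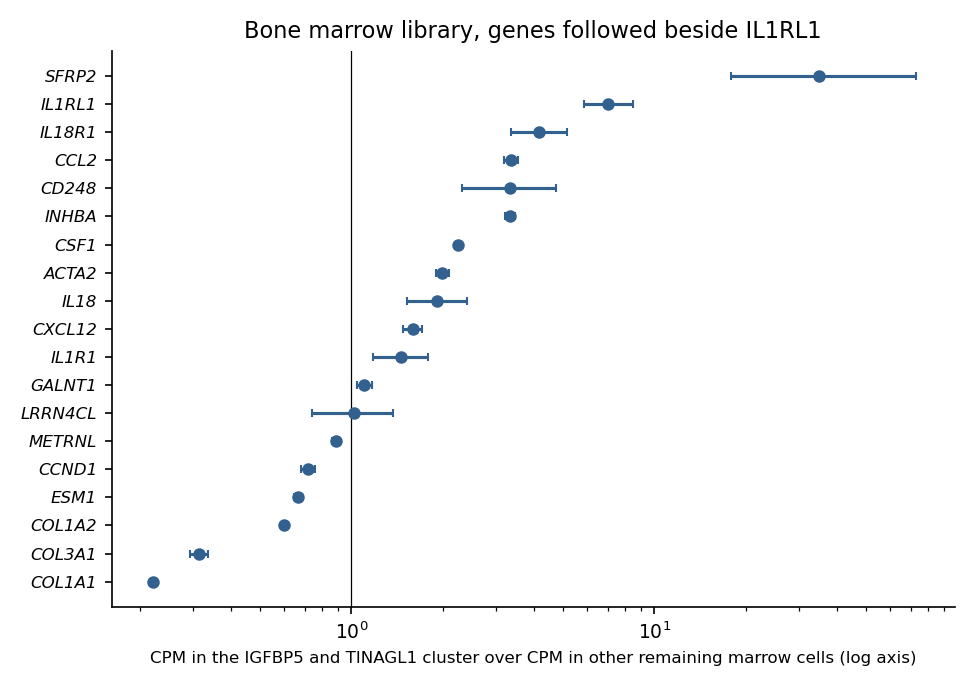
Ratio of CPM in the bone marrow cluster led by IGFBP5 and TINAGL1 to CPM in the other remaining marrow cells (log axis), with 95% exact intervals, for IL1RL1 and 18 genes followed beside it. IL1RL1 was 7.05-fold higher and SFRP2 34.9-fold higher in the cluster, and COL1A1 had a ratio of 0.222.

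The ligand was nearly absent from the stromal cells of all 3 cultures. IL33 had 7 UMIs in adipose cells, 2 in blood cells and 30 in bone marrow cells. None of the marrow UMIs was in the 8302 remaining cells. They lay in the macrophage-like cluster, with 21 UMIs or 6.08 CPM (3.76 to 9.29), and in the cluster of mixed macrophage and stromal content, with 9 UMIs. The 2 blood UMIs were in macrophage-like cells as well, and the 7 adipose UMIs were in 7 separate stromal cells.

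The co-receptor IL1RAP was scarce in the stromal cells of every library. IL1RAP, which ST2 needs for signalling, had 1.30 CPM (123 UMIs) in adipose, 1.26 CPM (112 UMIs) in blood and 2.29 CPM (226 UMIs) in bone marrow. At 3000 UMIs it was seen in 0.380% of remaining adipose cells (0.241 to 0.570), 0.297% of blood cells (0.136 to 0.562) and 0.253% of marrow cells (0.157 to 0.386). In the bone marrow library it was highest in the macrophage-like cluster, at 25.5 CPM (20.4 to 31.4), while the marrow stromal clusters had 0.824 to 1.22 CPM. In adipose, 0.431% of the cells with an IL1RL1 UMI (0.264 to 0.665) also had an IL1RAP UMI, against 0.213% of the cells without. These shares rest on 23 remaining adipose cells with an IL1RAP UMI, and their difference was not tested.

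The adaptor MYD88, the kinases IRAK4 and IRAK1 and the ligase TRAF6 had close levels in the 3 libraries. MYD88 was at 23.8, 23.8 and 23.9 CPM in adipose, blood and bone marrow. IRAK4 was at 55.6, 58.7 and 55.2 CPM, IRAK1 at 34.9, 32.4 and 39.6 CPM, and TRAF6 at 10.9, 12.1 and 11.0 CPM. Of the 29 listed adaptor, kinase and NF-kB genes, 4 reached 50 CPM, and 2 of these, the NF-kB inhibitor NFKBIA and the p38 kinase activator MAP2K3, were at least 2-fold lower in adipose than in bone marrow. The median log2 ratio of the 4 was −0.60 for adipose over bone marrow, beside 0.10 over all measured genes, and 0.13 for blood over bone marrow, beside −0.02. MAP2K3 was at 57.6 CPM in adipose, 60.6 CPM in blood and 134 CPM in bone marrow. NFKBIA was at 16.8 CPM in adipose, 95.7 CPM in blood and 52.7 CPM in bone marrow, and at 23.6 CPM in the remaining marrow cells. Of the 10 listed brakes on the receptor 3 were measured, and DUSP1, a phosphatase that switches off MAP kinases, was at least 2-fold higher in blood, at 204 CPM against 74.6 CPM in bone marrow; it was at 80.9 CPM in adipose. SIGIRR, a receptor that dampens ST2 signalling, was at 0.464 CPM in adipose, 6.40 CPM in blood and 0.780 CPM in bone marrow.

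**Figure D4:**
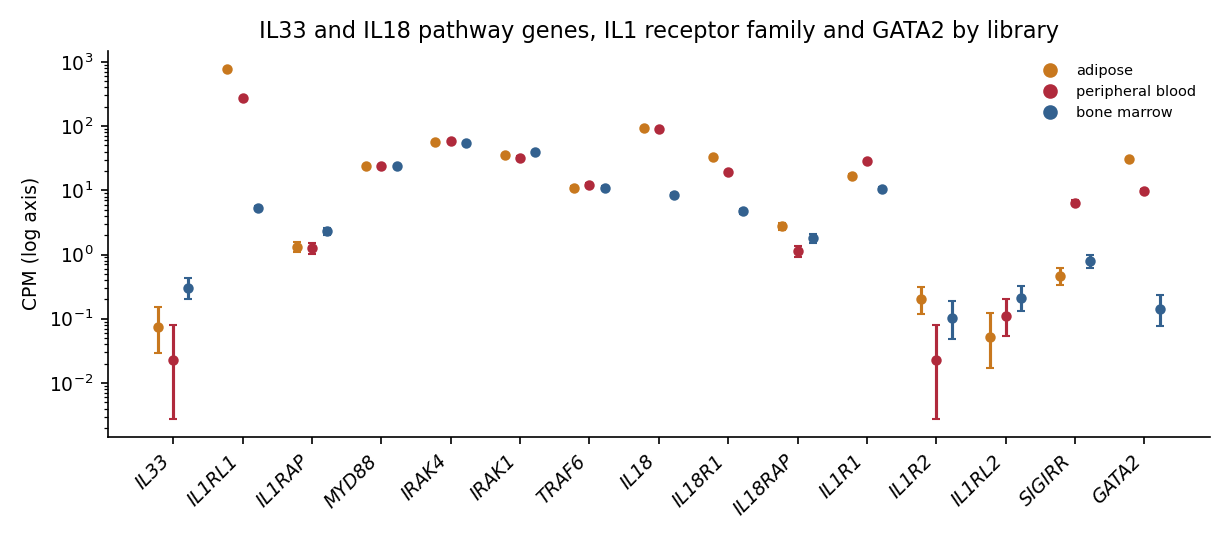
Level in CPM (log axis) of IL33, IL1RL1, IL1RAP, signalling genes, related IL1 family genes and GATA2 in the adipose, peripheral blood and bone marrow libraries, with 95% exact Poisson intervals. IL1RL1, IL18, IL18R1 and GATA2 are lowest in bone marrow, while MYD88 is at 23.8 to 23.9 CPM in all 3 libraries.

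None of the other genes of the IL1 receptor family reached 50 CPM. In the RefSeq annotation of assembly ARS-UCD2.0, which is not the build of the files, IL1RL1 lies on chromosome 11 in a run of related genes: IL1R2, IL1R1 and IL1RL2 before it, and IL18R1, IL18RAP and the ion exchanger gene SLC9A4 after it. The receptor for IL18, IL18R1, was at 33.4 CPM in adipose, 19.2 CPM in blood and 4.74 CPM in bone marrow. Its annotated span overlaps that of IL1RL1 there, and the rule by which shared reads were counted is not known here, so its counts are uncertain. IL1R1, the interleukin 1 receptor, was at 16.8, 28.2 and 10.5 CPM in the same order, and IL18RAP at 2.75, 1.13 and 1.79 CPM. IL1R2 and IL1RL2 stayed at or below 0.213 CPM in every library, and IL1RAPL1, IL1RAPL2 and SLC9A4 had 0 UMIs. Of these 7 neighbouring genes, IL1RL1 alone reached 50 CPM in adipose or blood.

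Among the 12 ligands and antagonists of the family, IL18 alone was at least 2-fold higher in both adipose and blood than in bone marrow. IL18 was at 93.2 CPM in adipose, 88.6 CPM in blood and 8.48 CPM in bone marrow, ratios over bone marrow of 11.0 (10.2 to 11.8) and 10.4 (9.73 to 11.2). IL36A, an epithelial IL1 family cytokine, was at 31.8 CPM in adipose, 21.8 CPM in blood and 56.1 CPM in bone marrow, at least 2-fold lower in blood. IL1A, IL1B and the antagonist IL1RN stayed at or below 10.3 CPM. Of the listed proteases that process such ligands 3 were measured, and the cathepsins CTSS and CTSB were at least 2-fold lower in adipose and in blood than in bone marrow. CTSS was at 5.41 CPM in adipose, 70.8 CPM in blood and 205 CPM in bone marrow, and at 14.3 CPM in the remaining marrow cells. CTSB was at 80.7, 99.8 and 215 CPM, and at 67.5 CPM in the remaining marrow cells. Both follow the macrophage marker sums given above, whose part was not tested.

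Genes that interleukin 1 family signals can induce went in both directions. Of the 22 found, 7 were measured in adipose and bone marrow: CSF1, the macrophage growth factor, was at least 2-fold higher in adipose, and IL6, CXCL8, MMP9 and CCL5 were at least 2-fold lower. The median log2 ratio of the 7 was −1.62, beside 0.10 over all measured genes. Of 8 measured in blood and bone marrow, CXCL5 and CXCL2 were higher in blood and IL6 and CCL5 lower, with a median log2 ratio of −0.16 beside −0.02 over all genes. IL6 was at 6.21 CPM in adipose, 70.1 CPM in blood and 288 CPM in bone marrow, the reverse of the IL1RL1 order. Of 14 measured AP-1 and serum response genes, EGR1 was at least 2-fold higher in adipose than in bone marrow, and PHLDA1, PLAUR, IER3, HMGA1 and PLAU were lower. In blood EGR1 was again higher and PHLDA1, PLAUR, IER3 and HMGA1 lower than in bone marrow. In the S-phase and G2/M gene lists, no measured member was at least 2-fold apart between any of the libraries. Over the other lists, 43 members were measured in adipose and bone marrow. Of these, 5 were at least 2-fold higher in adipose and 16 lower, where 2.55% and 4.35% of all measured genes were. In blood and bone marrow 46 were measured, 10 of them higher in blood and 13 lower, where 3.9% and 3.86% of all genes were. Over the remaining cells alone, 6 of 35 were higher and 6 lower in adipose, and 12 of 39 higher and 7 lower in blood. All genes over the remaining cells gave 2.63% higher and 3.45% lower in adipose, and 4.09% higher and 3.29% lower in blood. The lists were chosen with earlier results known, so nothing particular to them is read from these counts. The members lost in adipose include MMP9, CCL5, CXCL8 and NFKBIA, with 4.67, 22.6, 16.5 and 23.6 CPM in the remaining marrow cells.

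Markers of the blood cells best known for ST2 were nearly absent. The mast cell genes MS4A2 and TPSB1 had 0 UMIs in every library and KIT, the stem cell factor receptor, stayed at or below 0.213 CPM. The mast cell list summed to 31.5 CPM in adipose, of which GATA2 made up 30.4 CPM, to 70.9 CPM in blood and to 214 CPM in bone marrow. FCER1G and SRGN, which macrophages also express, were at least 2-fold lower in adipose and in blood than in bone marrow, and stood at 2.06 and 3.33 CPM in the remaining marrow cells. The list of T cell and group 2 innate lymphoid markers summed to 18.3 CPM in adipose, 17.2 CPM in blood and 28.8 CPM in bone marrow, with none at 50 CPM.

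GATA2 tracked the receptor across the libraries at a lower level. It encodes a transcription factor that drives ST2 in mast cells and basophils of mouse and human, and it was picked out after its values were seen. It was at 30.4 CPM (2885 UMIs) in adipose, 9.82 CPM (876 UMIs) in blood and 0.142 CPM (14 UMIs) in bone marrow. The ratios were 215 (128 to 393) for adipose over bone marrow, 69.3 (41.1 to 127) for blood over bone marrow and 3.10 (2.87 to 3.34) for adipose over blood. Within libraries the correlation over remaining cells was 0.0276 in adipose and −0.0322 in blood. The marrow cluster with the most IL1RL1 held 1 GATA2 UMI, against 13 in the other remaining cells. GATA2 also marks endothelial cells, and it was highest in adipose in the endothelial cluster, at 98.3 CPM (71.1 to 132), with 21.8 to 34.8 CPM in the 4 large stromal clusters. Free RNA held 34.4 CPM of GATA2 in adipose and 8.28 CPM in blood, about as much as the cells. No gene of the 17 listed factors tied to IL1RL1 transcription reached 50 CPM. Together these factors summed to 125 CPM in adipose, 124 CPM in blood and 98.1 CPM in bone marrow. Their highest member was at 36.6, 42.7 and 26.8 CPM in the same order, above GATA2 each time. A part of GATA2 in the IL1RL1 level was not tested.

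Other genes shared the split of adipose and blood from bone marrow. Apart from IL1RL1, 38 genes were at least 2-fold higher in both adipose and blood than in bone marrow and 73 at least 2-fold lower in both, of 3017 measured in both comparisons. Of the 10 genes with the largest smaller ratio, SFRP2 led, at 114 CPM in adipose, 227 CPM in blood and 0.526 CPM in bone marrow. CD248, a stromal membrane protein also called endosialin, was at 68.3, 102 and 1.94 CPM, and LRRN4CL, a membrane protein, at 611, 131 and 6.43 CPM. Next were CEMIP, FST, IL18, HOXB7, VCAN, MEDAG and TEX2, with smaller ratios of 13.3 down to 6.40. FST, follistatin, which binds and blocks activin, was at 284 CPM in adipose, 224 CPM in blood and 19.2 CPM in bone marrow. LRRN4CL, like IL1RL1, was higher in adipose than in blood, while SFRP2 and CD248 were higher in blood. SFRP2 went slightly against IL1RL1 from cell to cell, with correlations of −0.123 in adipose and −0.117 in blood.

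Most of the 18 genes found from the adipose progenitor list, which holds SFRP2, were below 50 CPM in each comparison. Of its 6 genes measured in adipose and bone marrow, SFRP2 was at least 2-fold higher and FABP4, at 99.6 CPM in bone marrow but 4.93 CPM in its remaining cells, lower. Of 8 measured in blood and bone marrow, MFAP5, SFRP4, PDGFRA, CEBPD and SFRP2 were higher in blood and FABP4 lower. Over all measured genes, 2.55% were higher and 4.35% lower in adipose, and 3.9% higher and 3.86% lower in blood. A gene scarce in bone marrow was measured only if it was high in the other library. SFRP2 had already been named for this split, so nothing is read about the list. Among 31 other cytokine receptors, IL17RC, a chain of the interleukin 17 receptor, was at least 2-fold higher in adipose than in bone marrow, at 50.8 CPM against 16.0 CPM, and TNFRSF12A was at 558 CPM in adipose, 507 CPM in blood and 517 CPM in bone marrow.

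Some of these genes were higher in the marrow cluster with the most IL1RL1. Of 51 SFRP2 UMIs in remaining marrow cells, 39 lay in the IGFBP5 and TINAGL1 cluster. Of the 38 genes, 13 reached 50 CPM in the marrow comparison, and TINAGL1 and CRISPLD2 were at least 2-fold higher in the cluster than in the other remaining cells; over all 3036 genes measured there, 0.758% were. TINAGL1 is itself a leading gene of the cluster, and it reached 50 CPM only there, at 70.1 CPM against 12.7 CPM. The median log2 ratio of the 13 was 0.67, beside 0.07 over all. The cluster was picked for its IL1RL1 level from these same counts, so nothing is read about the 38 genes as a set. LRRN4CL was at 6.43 CPM in the cluster and 6.32 CPM in the other cells.

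Over the 18 clusters of at least 50 cells in the 3 libraries, the genes whose log2 level was most like that of IL1RL1 were FBLN5, TEX2, HDAC7, HOXB7, MEDAG, NOVA1, GCLM, MOSPD3, CD248 and DMRT2, with Pearson correlations of 0.939 to 0.967. FBLN5, an elastic fibre protein, had 63.7 CPM in adipose, 28.2 CPM in blood and 1.23 CPM in bone marrow. These correlations describe the step between libraries, and clusters of a library share its culture and its preparation. With ranks in place of log2 levels, 3 of the 10 genes were again among the highest.

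Correlations over cells were ranked among genes with a symbol and at least 50 CPM in the library, without mitochondrial and ribosomal protein genes. Among these ranked genes, ESM1 went most closely with IL1RL1 from cell to cell within the adipose and blood cultures. ESM1 encodes endocan, a secreted proteoglycan. Over 6049 adipose cells its correlation with IL1RL1 was 0.407, and over 3035 blood cells 0.463. The central 95% of the ranked genes lay between −0.0897 and 0.119 in adipose and between −0.212 and 0.215 in blood. When cells were thinned to 6000 UMIs, the values were 0.329 and 0.320. Cells of a library share its preparation and its free RNA, and cell depth itself was nearly unrelated to the IL1RL1 level, with correlations of −0.0353 and 0.0792.

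Adipose cells were ranked by IL1RL1 level and split into 4 groups of equal size, which had 150, 464, 858 and 1760 CPM of IL1RL1 by construction. ESM1 was at 597, 798, 997 and 1311 CPM over the same groups. In blood, groups with 17.8, 110, 270 and 709 CPM of IL1RL1 had 192, 336, 434 and 667 CPM of ESM1. ESM1 did not share the tissue pattern of IL1RL1, as it was at 922 CPM in adipose, 403 CPM in blood and 758 CPM in bone marrow. In bone marrow its correlation with IL1RL1 was 0.00876, and the IL1RL1-rich cluster had less of it than the other remaining cells, 556 CPM against 832 CPM.

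CSF1 came next in adipose, with a correlation of 0.360. It was followed by INHBA, a subunit of activin, at 0.304; METRNL, a secreted meteorin-like protein, at 0.251; and GALNT1, which begins O-glycosylation, at 0.237. The 10 highest adipose genes ended with HSP90B1, CXCL12, MEOX1, CALR and CCND1, at 0.205 to 0.232. From the lowest to the highest IL1RL1 group, CSF1 was at 1000, 1351, 1644 and 2082 CPM and INHBA at 200, 272, 372 and 516 CPM. MEOX1, a homeobox factor, was 3.14 times as high in the highest as in the lowest group (2.87 to 3.44).

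In blood, GALNT1 at 0.350 and CXCL12, a chemokine that retains blood-forming cells, at 0.334 followed ESM1. The other places were held by PTMA, HSP90AB1, ATP5MC3, SUMO2, NASP, EMP1 and NPM1, at 0.283 to 0.314. At 6000 UMIs per cell these blood correlations were weaker, 0.176 for GALNT1, 0.199 for CXCL12 and 0.133 to 0.191 for the other 7. In adipose the correlations of those 7, where measured, lay between −0.0462 and 0.0566 apart from EMP1. EMP1 was below 50 CPM in adipose, and with a minimum of 20 CPM its correlation there was 0.208. The summed S-phase genes were 1.44 times as high in the highest as in the lowest IL1RL1 group of blood cells and 1.15 times in adipose. In blood cells low in cycling transcripts, 6 of these 10 genes were again among the 10 highest, ESM1 among them. The part of the cell cycle in these correlations was not tested.

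The lowest correlations in blood were those of TMBIM6 (−0.400), COL1A1 (−0.387), the actin-severing DSTN (−0.379), COL1A2 (−0.375) and RAB13 (−0.346). COL1A1 was at 4095 CPM in the highest and 7948 CPM in the lowest IL1RL1 group of blood cells. In adipose the lowest were TMSB4X (−0.238), EIF1 (−0.223), PRDX1 (−0.190), the tropomyosin TPM2 (−0.189) and ACTN1 (−0.178). TPM2 was at 309 CPM in the highest and 553 CPM in the lowest adipose group, and at 578 CPM in the highest and 1314 CPM in the lowest blood group. COL1A1 was nearer 0 in adipose, at −0.0914, and lowest of the ranked genes in bone marrow, at −0.186.

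Ranked genes with a correlation of at least 0.2 numbered 10 in adipose and 84 in blood. ESM1, INHBA, METRNL, GALNT1, CXCL12 and CCND1 were in both, which is 60.0% of the adipose genes and 7.14% of the blood genes. With cells thinned to 6000 UMIs, ESM1, CSF1 (0.309) and INHBA (0.246) reached 0.2 in adipose and ESM1 alone in blood. Thinning leaves fewer UMIs per cell, and its part in these lower counts was not tested. No ranked gene reached 0.2 in bone marrow, and with so few IL1RL1 UMIs per marrow cell this is no finding. INHBA and CSF1 were also higher in the IL1RL1-rich marrow cluster than in the other remaining cells. INHBA, which helped to define that cluster, was at 438 CPM against 132 CPM, and CSF1 at 1104 CPM against 492 CPM.

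**Figure D5:**
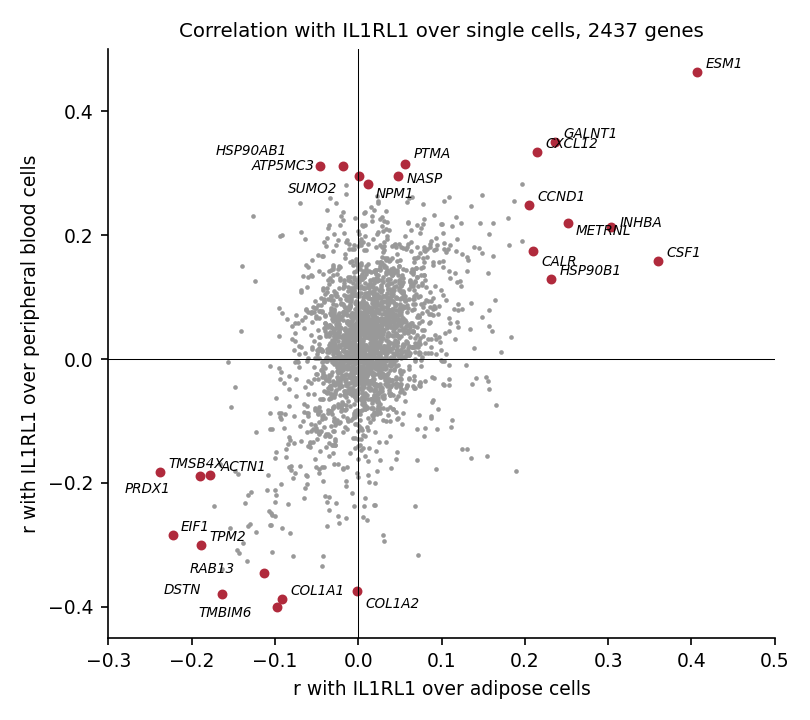
Pearson correlation of each gene's log level with that of IL1RL1 over remaining adipose cells (horizontal axis) and over remaining peripheral blood cells (vertical axis), with the named genes marked in red. ESM1 lies at 0.407 and 0.463, away from the other genes shown. COL1A1 (−0.0914 and −0.387) and TPM2 (−0.189 and −0.300) lie below 0 on both axes.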

How the data were processed

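Single-cell suspensions of 3 cultures were profiled with 10x 3′ v3.1 libraries, per the labels' protocols. The authors deposited raw UMI counts per gene and barcode; Cell Ranger is named as version 6.1.1 in the submitters' processing notes and as 4 in the file headers, with the build ARS-UCD1.2. Each matrix lists 21861 genes and has 99356868 (adipose), 98016815 (blood) and 106322567 (bone marrow) UMIs.

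Cells were barcodes above the 99th percentile of the 3000 largest divided by 10, with at least 500 genes and at most 20% mitochondrial UMIs. No doublet caller was run and doublets were not removed. Cells were clustered per library with scanpy 1.11.5 (Leiden resolution 0.5) and named from listed markers. CPM, ratios and their exact intervals come from summed counts (scipy 1.17.1, numpy 2.4.6, pandas 2.3.3); the floor was 3 UMIs. A gene was measured in a comparison at 50 CPM in the higher library and called at 2-fold. Correlations are Pearson's r of log values scaled to 10000 UMIs per cell, and were repeated with cells thinned to 6000 UMIs. edgeR 4.0.16 supplied TMM factors as an alternative scaling only. The scripts were tested on simulated data, where 200 of 200 genes changed 3-fold were called in each comparison and 0 of 200 changed 1.5-fold. The exact intervals held the true ratio for 192, 196 and 185 of the 200 genes changed 3-fold in adipose over bone marrow, blood over bone marrow and adipose over blood. Those counts had Poisson noise only, so the test checks the code and not variation between cultures or animals.

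IL1RL1, the marker lists and the gene lists were chosen with earlier results of these data known. Named genes were the IL33 and IL1 receptor lists in full, other list members past 2-fold, up to 3 neighbours on each side, the 10 highest and 5 lowest correlations in adipose and in blood, the 10 highest over clusters, the 10 largest shared ratios and cluster leaders. GATA2, TNFRSF12A, and the lower-abundance pathway genes were named beyond this rule after their values were seen. A result that this rule would name is not reported here.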

Additional observations from a re-analysis of the deposited data

Results flagged for a closer look

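IL1RL1 was also found in data outside the kept cells. In barcodes of 10 to 100 UMIs, which are too small to be cells and carry free RNA, it stood at 325 CPM (681 UMIs) in adipose and 101 CPM (269 UMIs) in blood. The same class of barcodes in bone marrow held 3 UMIs, or 2.31 CPM, which is the floor. The kept cells had the higher level in adipose, at 787 CPM, and in blood, at 274 CPM. In bone marrow the interval of the free RNA level, 0.476 to 6.75 CPM, holds the 5.29 CPM of the kept cells.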

How the results depend on the processing

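The order of the libraries, adipose, then blood, then bone marrow, held under every alternative run for the level. Restricting to low-cycling cells gave 674 CPM in adipose, 225 in blood and 2.59 in bone marrow, and ratios of 261, 87.1 and 2.99 for adipose over bone marrow, blood over bone marrow and adipose over blood. Cells of at least 10000 UMIs gave 772 CPM in adipose and an adipose over blood ratio of 2.80, and a minimum of 1000 UMIs gave 270.2 CPM in blood. The remaining cells alone gave 280.5 CPM in blood and a ratio of 2.81; the exclusion by finer clusters, chosen after seeing the data, gave 280.4 CPM and 2.82. The adipose over blood ratio was 2.74 with TMM factors, 2.76 with median-of-ratios factors and 3.003 with each cell counted alike.

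Thinning to 1500 UMIs, to 6000 UMIs or not at all gave shares of 59.1%, 88.7% and 95.2% in adipose, 27.5%, 59.7% and 82.9% in blood, and 0.797%, 2.99% and 4.58% in bone marrow. The top 10% of cells held 30.9% of UMIs at 6000 UMIs and 31.6% unthinned in adipose, and 42.0% and 39.1% in blood. Cluster ranges were taken over clusters called stromal-like, without the adipose cluster of 23 cells, which had 174 CPM. In adipose the highest over the lowest was 1.12 at resolution 0.3, 2.47 at resolution 1 and 1.38 with IL1RL1 left out of the clustering. In blood it was 1.44, 2.93 and 2.85 in the same order, and in bone marrow 20.3 at resolution 1.

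At 3-fold, 45 genes were higher in adipose than in bone marrow, 55 higher and 53 lower in blood than in bone marrow, and 18 higher and 50 lower in adipose than in blood. A minimum of 20 CPM gave 163 and 264, 211 and 198, and 80 and 224 genes higher and lower in those comparisons. A minimum of 10 CPM gave 14, 19 and 3 list members higher, against 5, 10 and 1. With the remaining cells alone, 6 members were lower in adipose and 7 in blood than in bone marrow, against 16 and 13. Of the 10 genes of highest correlation in blood, 6 were again among the 10 highest in low-cycling cells, and 3 of the 10 over clusters were with ranks. At 6000 UMIs per cell, 3 genes in adipose and 1 in blood had a correlation of at least 0.2, against 10 and 84. The cause of these changes was not tested beyond the smaller sets of cells or genes that define them.

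No paired analysis was possible because each tissue has 1 library, and leaving out a replicate was impossible for the same reason. Free RNA at 325 CPM in adipose limits how far a UMI in a cell shows expression there, and 523 UMIs limit every statement on bone marrow cells.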

Other observations

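Barcodes between 1000 UMIs and the cell threshold, which were not kept, had 549 CPM of IL1RL1 in adipose, 28.9 CPM in blood and 3.30 CPM in bone marrow. In adipose this lies between free RNA and cells, while in blood it lies below free RNA.

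ESM1 was also counted in cells with and without an IL1RL1 UMI. At 3000 UMIs it was seen in 86.4% of adipose cells with an IL1RL1 UMI and 73.2% of those without. In blood the shares were 64.2% and 47.7%, and in bone marrow, where 132 remaining cells had an IL1RL1 UMI, 83.3% and 84.4%.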
